A study of Mus musculus with 2 samples.

Results

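The Ighd and Ighm interval is a 39.0 kb stretch of mouse chromosome 12 (build mm9) that lies at about the place of the delta and mu constant region genes and the mu switch region. Its members were chosen by position alone: a HindIII fragment belonged to it when its midpoint lay at or above 114625000 and below 114664000, and every primer pair with at least 1 end on such a fragment was a member. The interval held 10 of the 206 assayed fragments, 5 with a forward primer and 5 with a reverse primer. They formed 1005 of the 10584 primer pairs, 25 of them with both ends inside the interval and the rest reaching 196 partner fragments outside it. The bounds are approximate, no mm9 annotation was used, and no single fragment is assigned here to a gene or an element.

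The immunoglobulin heavy chain locus is read from its variable (VH) segments through the D and J segments into a row of constant region genes. Ighm and Ighd are the first constant genes of that row, and a resting mature B cell makes both IgM and IgD from a shared long transcript that starts at the rearranged VH segment. The mu switch region, upstream of the Ighm exons, is where switch recombination begins once a B cell is activated, and it is joined to the switch region of a downstream constant gene. The Emu enhancer lies between the J segments and the mu switch region, and the 3′ regulatory region, a group of enhancers, lies past Igha at the other end of the constant genes. The locus runs toward lower coordinates on chromosome 12, so that in the gene order of RefSeq the genes Ighg3, Ighg1, Ighg2b, Ighg2c, Ighe and Igha follow Ighd on the low-coordinate side, and the J, D and VH segments follow Ighm on the high-coordinate side.

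Contacts were measured by 5C (chromosome conformation capture carbon copy) in splenic B cells of C57Bl/6 mice. The cells were resting, were labelled unstimulated, and had been sorted as CD43- with magnetic beads; no treated, mutant or other control group was among the samples. In 5C, chromatin is crosslinked and cut with HindIII, the ends are ligated, and a count is the number of sequenced products that join 1 forward to 1 reverse primer. The group had 2 libraries, which the design text calls biological replicates, with 16067416 and 15096402 counts in all. The fragments spanned 114339456 to 117350186, which leaves 286 kb of assayed sequence below the interval and 2.69 Mb above it.

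With 2 libraries of 1 group no test between conditions was possible, and a two-sided exact permutation test over 2 libraries could not give a p below 0.5. Values are therefore the mean ± SD of the 2 libraries or both values, and no p is given. The ratio of a pair is its count divided by the count expected at its distance, which is a smoothed curve through all pairs of that library. The ratio of a group of pairs is the summed count divided by the summed expected count. The ratio holds both the frequency of a contact and the efficiency of its 2 primers, which cannot be told apart from 1 pair. A primer-corrected ratio was therefore also computed, on the log2(count + 1) scale, after the mean effect of each forward and each reverse primer had been taken out; it is a mean over pairs of equal weight. It also takes out any real tendency of a fragment to contact the whole locus. Pairs that share a fragment or a primer are not independent of each other.

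The members took up 1584102 counts in library 1 and 1441584 in library 2, which was 9.70% ± 0.219 (SD, n = 2) of all counts. The 8 members whose fragments share a HindIII site gave 4.26% ± 0.0948 of all counts, and uncut or re-joined chromatin gives the same product as ligation there. The other members gave 5.44% ± 0.124. Among all members 3 had a count of 0 in library 1 and 8 in library 2, none had 0 in both, and 932 had at least 10 counts in both libraries. The 2 libraries ranked the members alike, with a Spearman correlation across the 1005 pairs of 0.926 for counts and 0.650 for the primer-corrected z, the distance of a pair from the fitted value in units of the local spread. They were not copies of each other, since the counts differed by a median of 1.20-fold over 528 pairs in which neither library had under 100 counts, and their chi-square was 25.1 times its 1004 degrees of freedom.

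The 10 fragments of the interval differed widely in their contacts with partners at least 100 kb away. The counts given with each fragment are totals over all its pairs, including near pairs and those that share a HindIII site. Without pairs that share a site, R70 had 227926 and 200474 counts, F71 had 239430 and 231382, and R77 had 31930 and 30255. R70, at 114647312-114649351, had 621828 and 565898 counts in all and the highest ratio, 5.27 ± 0.0235. R75, at 114652514-114656272, followed with 243800 and 202019 counts and a ratio of 2.61 ± 0.123. The value of R70 includes 1 pair, F115-R70, with 67298 and 66759 counts. Without it R70 had 1.63 ± 0.00029 toward the high-coordinate side, against 1.58 ± 0.0350 for R75. Toward the low-coordinate side, which that pair does not touch, R70 had 3.73 ± 0.327 and R75 had 3.93 ± 0.180. Without that pair R70 was thus not above R75 on both sides. R70 and R75, both reverse fragments, were the high end of the interval, and the next fragments stood apart from them by more than the SD of either.

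F78 (114659959-114662158), with 255331 and 240430 counts, and F68 (114638362-114643285), with 119772 and 99677, had ratios of 1.60 ± 0.0218 and 1.55 ± 0.103, which did not differ beyond their spread. F71 (114649352-114649657), a fragment of only 306 bp with 633332 and 596806 counts, stood at 1.15 ± 0.0631. R73 (114649669-114650838) and F74 (114650839-114652513) had 1.06 ± 0.0192 and 0.992 ± 0.144, which did not differ beyond their spread. These 5 fragments were close to or above the level expected from distance.

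The lowest fragments lay at the high-coordinate end of the interval. R77 (114658751-114659958) had 182845 and 176119 counts and a ratio of 0.695 ± 0.00224, and F76 (114656273-114658750) had 49877 and 45000 and a ratio of 0.464 ± 0.0115. R79 (114662159-114664063), the last fragment of the interval, had 26563 and 23344 counts and a ratio of 0.314 ± 0.00804. Neighbours in the genome did not share a level, since F78, at 1.60, lies between R77 and R79.

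**Figure D1:**
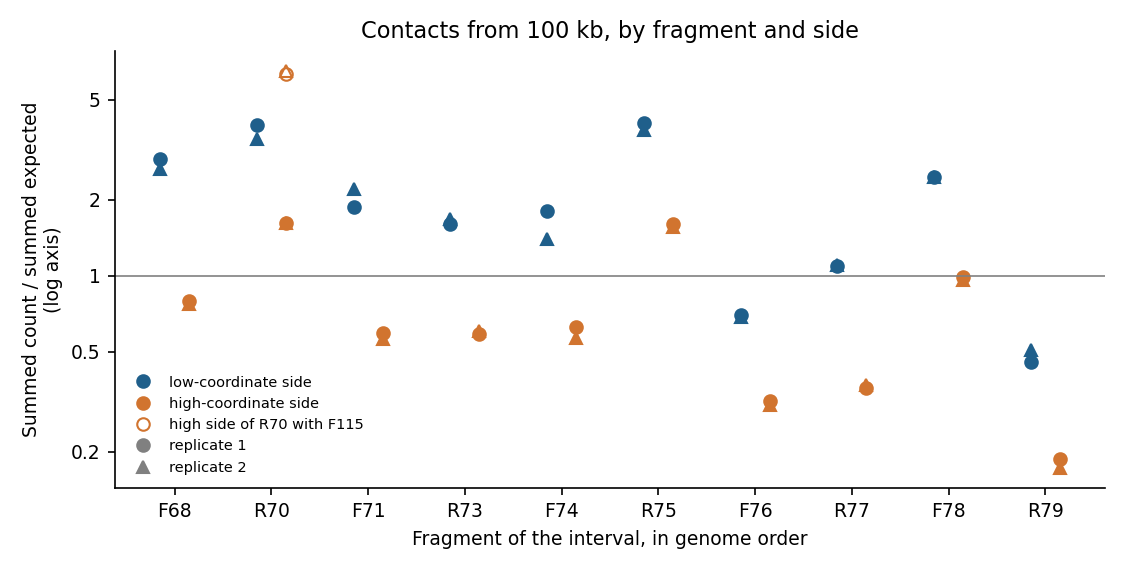
Ratio of observed to expected counts (log axis) of each of the 10 interval fragments with partners at least 100 kb away, on the low-coordinate and the high-coordinate side. Circles and triangles are the 2 libraries, and open symbols show R70 with F115-R70 kept in; 9 of 10 fragments lie higher on the low side, and R70 is the exception at 3.73 against 6.41 only with that pair.

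In 9 of the 10 fragments the ratio was higher toward the low-coordinate side, where the other constant genes and the 3′ regulatory region lie, than toward the VH segments. F68 had 2.78 ± 0.190 on the low side and 0.783 ± 0.0190 on the high side, and R75 had 3.93 ± 0.180 and 1.58 ± 0.0350. Even the weak fragment R79 had 0.481 ± 0.0374 on the low side and 0.180 ± 0.0100 on the high side. R70 was the exception, with 3.73 ± 0.327 on the low side and 6.41 ± 0.159 on the high side. A single pair, F115-R70, set that order, since R70 had 1.63 ± 0.00029 on the high side without it. The 39.0 kb directly below and above mostly leaned the same way. Low over high was 1.49 to 3.05 for the fragments below and 0.468 to 3.56 above, where R83 and R90 fell under 1. These ratios are not primer-corrected, and the low side reaches only 321 kb. After primer correction the low and high sides had 1.24 and 1.03 for the interval, 0.962 and 1.03 below, and 0.804 and 1.09 above. Those high-side values cover all distances from 100 kb. From 100 to 321 kb, which both sides of the interval reach, its low and high sides had 1.24 and 1.25 after primer correction, so they differed little there.

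Within the interval, the contacts between fragments lay below the distance curve as a group. The 25 pairs inside had a ratio of 0.707 ± 0.0270 and a primer-corrected ratio of 0.663 ± 0.0173, and 3 of them (12%) lay above the expected count in both libraries, against 14.0% of the other pairs under 100 kb. The 18 pairs inside without a shared HindIII site had a ratio of 0.425 ± 0.0189, and the 7 with one had 1.04 ± 0.0394. After primer correction these were 0.633 ± 0.00833 and 0.749 ± 0.0443. The 7 pairs inside that share a HindIII site ranged over more than 100-fold in count. F71-R70 had 393902 and 365424 counts, and F78-R77 had 138517 and 134486. F74-R75 had 84498 and 65770 counts, F74-R73 had 37001 and 31167, F76-R75 had 14401 and 12287, and F76-R77 had 12398 and 11378. F78-R79 had only 1189 and 1049 counts, with a primer-corrected z of -2.04 and -1.94, although its fragments touch. F71-R73, whose fragments do not share a site but have midpoints 749 bp apart, had 190711 and 182878 counts. The eighth member with a shared site joins the last fragment of the interval to the first one above it, F80-R79, with 13452 and 11529 counts.

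The high-coordinate edge was the poorest neighbourhood of the interval, and the J segments come next after Ighm on that side in the gene order. The 56 pairs with partners on the high side under 100 kb had a ratio of 0.116 ± 0.00932 and a primer-corrected ratio of 0.483 ± 0.0134. All other pairs of those distances had a ratio of 0.997 ± 0.000864 and a primer-corrected ratio of 1.04 ± 0.000907. Most pairs lie below a curve fitted to the mean, and the median ratios were closer, 0.0841 for the 56 pairs and 0.20 for the others. After primer correction 45 of the 56 pairs lay below the fitted value in both libraries and 7 above it in both. Among the 12 partner fragments there, 11 had a primer-corrected ratio under 1 in both libraries. The lowest was R83 (114667887-114670119), whose 5 pairs had 5029 and 6335 counts in sum and a primer-corrected ratio of 0.195 ± 0.0348.

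The fragments directly past the edge gave similar values over a stretch of neighbours. R81 (114664824-114667095) had a primer-corrected ratio of 0.326 ± 0.0364, F82 had 0.339 ± 0.0102, F84 had 0.331 ± 0.00650, and R85 had 0.293 ± 0.0107. F86 and R90 had 0.424 ± 0.000912 and 0.417 ± 0.00308, F91 had 0.622 ± 0.0281, and F80, the fragment next to the interval, had 0.919 ± 0.0659. R94 (114722112-114723013), about 70 kb away, was the only near partner on this side above 1, at 2.14 ± 0.121, and its uncorrected ratio was 0.175 ± 0.0106. F103 at 0.868 ± 0.128 and R106 at 0.505 ± 0.355 were less well measured, R106 from pairs with 188 and 341 counts in sum.

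The near low-coordinate side was not reduced in this way. Its 33 pairs under 100 kb had a ratio of 0.668 ± 0.0256 and a primer-corrected ratio of 0.986 ± 0.0476. Of the 8 partners, 4 lay above 1 in both libraries after primer correction and 3 below. The lowest was R55 (114601397-114612029) at 0.534 ± 0.0697, and the highest were R44 (114539129-114547720) at 1.85 ± 0.0640 from 1 pair and F49 (114559616-114579798) at 1.66 ± 0.184. Over the distances from 23.2 to 100 kb, which both sides reach, the primer-corrected ratios were 0.986 for 33 low-side pairs and 0.740 for 26 high-side pairs.

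**Figure D2:**
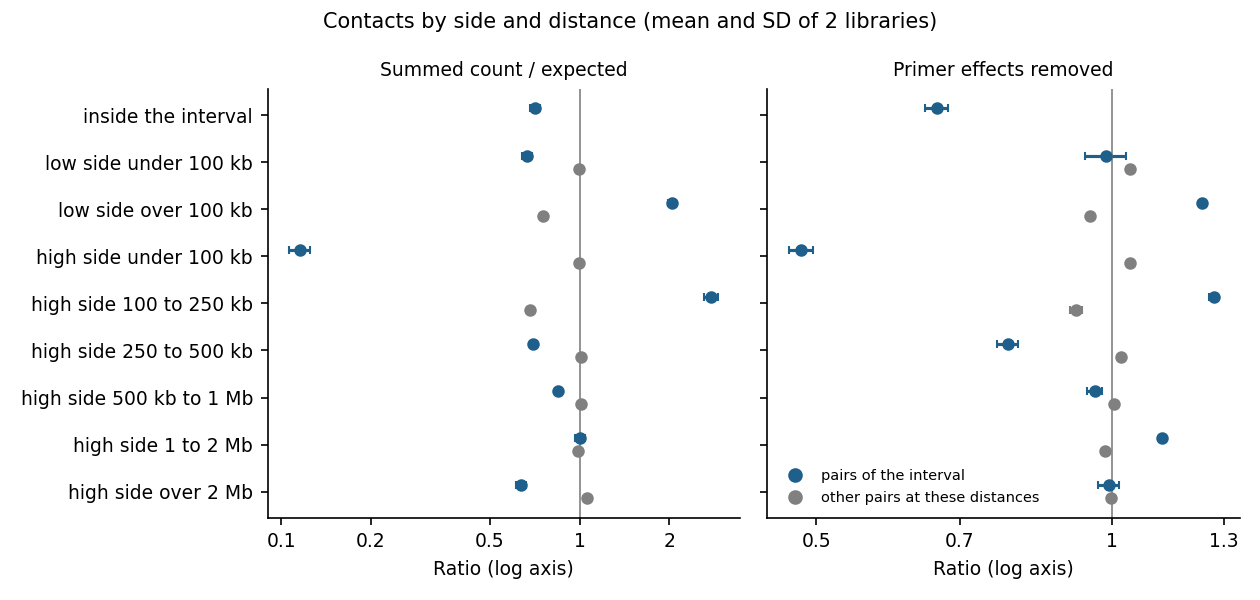
Ratio of observed to expected counts (log axis) by side and distance of the partner, for the interval's pairs (blue) and all other pairs of the same distance (grey), before (left) and after (right) primer effects were taken out. Points and bars are the mean and SD of the 2 libraries; on the left the high side under 100 kb (0.116) is the lowest class and the low side over 100 kb (2.04) stands above the other pairs (0.756).

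Beyond 100 kb the low-coordinate side lay above other pairs of the same distances. Its 172 pairs had a ratio of 2.04 ± 0.0637, against 0.756 ± 0.00871 for the 1250 other pairs of those distances. The primer-corrected ratios were 1.24 ± 0.00229 and 0.951 ± 0.00474. Of the interval's pairs, 85 (49.4%) lay above the expected count in both libraries, against 16.3% of the others, and the median ratio was 1.20 against 0.338. By partner, 26 of the 36 low-side fragments lay above the expected count in both libraries and 7 below. Of the 36, 31 had a higher ratio with the interval than with the rest of the locus, and the medians of the 2 ratios were 1.38 and 1.01. After primer correction 26 of the 36 had a ratio above 1 with the interval, with a median of 1.22.

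A group of 3 neighbours led this side. R33 (114486613-114491122), about 163 kb from the interval, had 28049 and 22628 counts with the interval and a ratio of 6.94 ± 0.525. F31 (114477117-114480873) had 21315 and 20514 counts and a ratio of 6.22 ± 0.280. F28 (114465909-114474052) had 21329 and 18430 counts and a ratio of 6.20 ± 0.208. R33 was the highest of the 3 in each library, at 7.31 and 6.57. F31 (6.03 and 6.42) and F28 (6.35 and 6.06) changed order between the libraries. All 5 pairs of each of the 3 lay above the expected count in both libraries. With the rest of the locus the same fragments had 4.54, 3.56 and 2.20. After primer correction R33 had 1.75, F31 had 1.90 and F28 had 2.59. After iterative correction R33 and F31 had 1.24 and 1.25, and F28 fell below 1, to 0.347.

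Before primer correction the pairs of these 3 partners roughly followed the order of the interval's own fragments. F28 had a ratio of 12.2 ± 0.717 with R75 and 11.3 ± 1.28 with R70, and 3.28, 2.32 and 1.54 with R73, R77 and R79. F31 had 10.1 ± 0.0951 with R75 and 9.98 ± 0.0639 with R70, and 4.81, 4.25 and 1.65 with R73, R77 and R79. R33, which pairs with the forward fragments, had 10.7 ± 0.313 with F78 and 10.1 ± 0.519 with F68, and 5.95, 5.58 and 2.26 with F74, F71 and F76. The fragments with high ratios overall were thus the ones with high ratios here, and each of the 10 fragments lay above the expected count with every one of the 3 partners it could pair with.

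**Figure D3:**
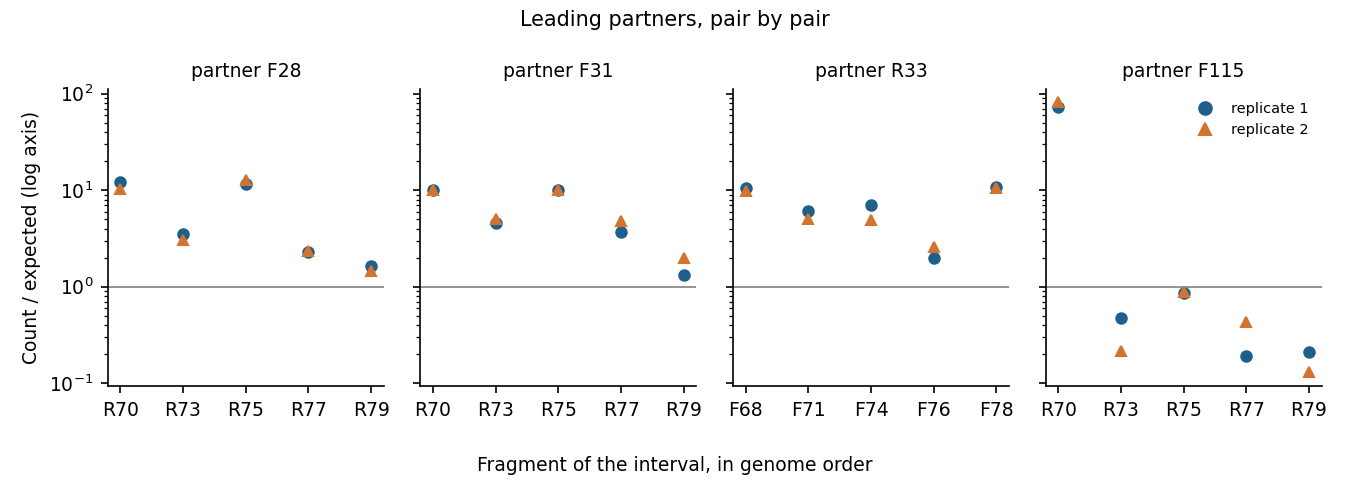
Ratio of observed to expected counts (log axis) of the single pairs that 4 partner fragments outside the interval (F28, F31, R33 and F115) form with the interval's fragments, in the 2 libraries (circles and triangles). F28, F31 and R33 lie above 1 with all 5 fragments, whereas F115 reaches 76.8 with R70 and stays under 1 with the other 4.

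Part of the low-side contacts lay in a continuous stretch once primer effects were taken out. It held 10 of the 36 low-side partners, while 26 of the 36 had a primer-corrected ratio above 1. The longest run of neighbouring partners with a primer-corrected ratio above 1 in both libraries ran over 10 fragments, from R24 to R37 (114447061-114502799), 150 to 205 kb from the interval. The run was picked for its values, so it is a description. Its 50 pairs had a primer-corrected ratio of 1.80 ± 0.0602, and 44 of them lay above the fitted value in both libraries. Their uncorrected ratios ranged from 0.118 for R24 to 6.94 for R33. The highest member after correction was F34 (114491123-114493851) at 3.32 ± 0.0787. The same 10 partners had a primer-corrected ratio of 1.13 ± 0.0545 with the 39.0 kb directly below the interval (19 pairs) and 1.12 ± 0.0203 with the 39.0 kb directly above (45 pairs). Without primer correction the 3 values were 3.28 ± 0.116, 2.45 ± 0.0219 and 2.59 ± 0.492. After iterative correction, which scales each primer to the same mean, the values were 1.05 ± 0.0141, 0.860 ± 0.0390 and 0.923 ± 0.0239, so that the interval was still highest but only slightly above 1.

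**Figure D4:**
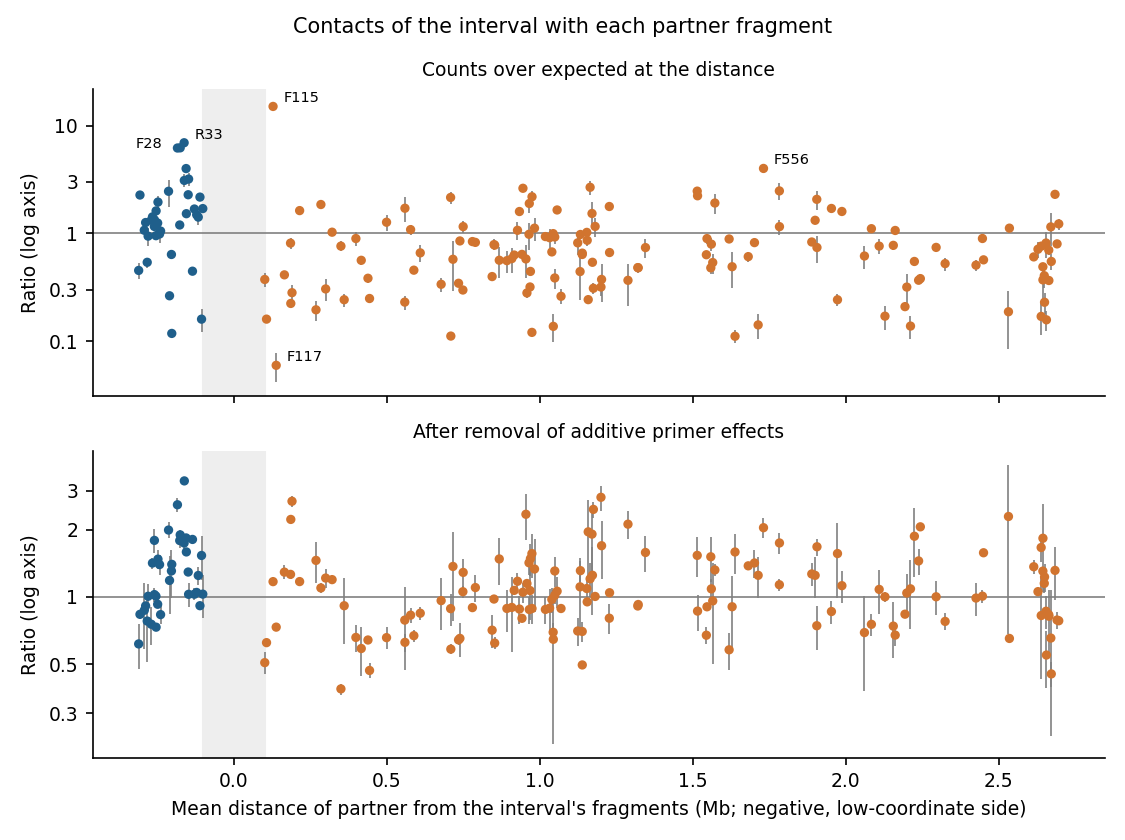
Ratio of observed to expected counts of each partner fragment with the interval (log axis), by its mean distance (Mb) on the low (negative) and high (positive) side, before (top) and after (bottom) primer effects were taken out; points and bars are the mean and SD of the 2 libraries, and partners under 100 kb (grey band) are left out. Partners 150 to 205 kb away on the low side stand above 1 after correction, and F115 leads before it at 15.1.

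On the high-coordinate side 1 pair stood far apart from all other members. F115-R70 joins 114778143-114787052 with R70 over 134 kb and had 67298 and 66759 counts, where 927 and 824 were expected. Its ratio was 76.8 ± 5.99, and its z was 18.6 and 20.9, or 5.01 and 4.62 after primer correction. The contact did not extend to the neighbours of R70. F115 had 444 and 181 counts with R73, 833 and 759 with R75, 191 and 382 with R77, and 216 and 116 with R79, with ratios of 0.345, 0.877, 0.313 and 0.171. F115 had a ratio of 1.66 with the rest of the locus, 1.03 with the stretch below the interval and 1.18 with the stretch above.

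The neighbour of F115 had no such contact, and both lay under 1 with R73, R75, R77 and R79. F117 (114791568-114794187), the next forward fragment above it, had the lowest ratio of all partners at least 100 kb away, 0.0596 ± 0.0178. F117-R77 had 2 counts in each library against 931 and 827 expected, and F117-R79 had 6 and 1 against 953 and 846. F117 was low with the rest of the locus too, at 0.0997, and its primer-corrected ratio with the interval was 0.732, against 1.17 for F115. The other partners of lowest ratio, R528 (0.111), R271 (0.111), R24 (0.118) and R345 (0.120), were likewise low elsewhere, and 3 of these 4 lay above 1 after primer correction. The remaining pairs of lowest ratio, F694-R77 with 1 and 0 counts, F295-R77 with 2 and 0, and F458-R79 with 2 and 0, all fell on the weak fragments R77 and R79.

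The value of the high side from 100 to 250 kb depended on F115-R70 and on primer correction. Its 39 pairs had a ratio of 2.76 ± 0.156, and the 38 without that pair had 0.459 ± 0.0139, against 0.681 ± 0.00996 for the other pairs of those distances. After primer correction the order turned, with 1.17 ± 0.0122 for the 38 pairs and 0.920 ± 0.0129 for the other pairs. Where both sides could be compared, from 23.2 to 321 kb, the low side had a ratio of 1.41 ± 0.0390 over 205 pairs and the high side 0.797 ± 0.0525 over 82 pairs. The quotient was 1.77 ± 0.165. From 100 kb on, the high side stood at 2.40 ± 0.119 with F115-R70 and at 0.505 ± 0.0186 without it, so 1 pair decided which side was higher. After primer correction the sides had 1.24 and 1.25 from 100 kb on, and 1.18 on the high side without that pair, so the sides differed little at those distances once primer effects were taken out.

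Farther toward the VH segments the contacts followed distance more closely. The ratio was 0.698 ± 0.00924 from 250 to 500 kb, 0.849 ± 0.0166 from 500 kb to 1 Mb, 1.0 ± 0.0397 from 1 to 2 Mb and 0.637 ± 0.0229 beyond 2 Mb. Other pairs of the same distances had 1.01, 1.01, 0.991 and 1.06. The primer-corrected ratios were 0.783 ± 0.0191, 0.961 ± 0.0174, 1.13 ± 0.00797 and 0.992 ± 0.0241. Beyond 2 Mb the value was close to 1 after primer correction, whereas at 250 to 500 kb it stayed below 1. Beyond 2 Mb, 30 of the 36 partners lay below the expected count in both libraries and 5 above. The median ratio of these 36 was 0.558 with the interval and 0.725 with the rest of the locus, and 13 were higher with the interval. After primer correction 19 of the 36 had a ratio above 1 with the interval.

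Part of the reduced contact at 250 to 500 kb came as a row of neighbours. The longest run of high-side partners at least 100 kb away and under 1 in both libraries after primer correction covered 5 fragments, R181 to R208 (115048372-115152740), 398 to 499 kb away, with a primer-corrected ratio of 0.594 ± 0.00640 over 25 pairs. The same partners had 1.03 ± 0.246 with the stretch below the interval and 1.10 ± 0.0902 with the stretch above. Without correction the values were 0.667 ± 0.0678 for the interval, 1.77 ± 0.312 below and 0.622 ± 0.0196 above. After iterative correction the 3 values were 0.429 ± 0.0130, 0.877 ± 0.115 and 0.938 ± 0.00669. A further run of 4 fragments, F233 to R249 (115211655-115262224), lay beyond that range, 559 to 609 kb away. Its primer-corrected ratio was 0.735 ± 0.0215 with the interval, 0.992 ± 0.00472 below and 2.30 ± 0.0977 above. Without correction the values were 0.986 ± 0.0487, 1.37 ± 0.138 and 2.98 ± 0.278, so the interval lay near 1. After iterative correction they were 0.476 ± 0.0592, 0.720 ± 0.0441 and 2.02 ± 0.0678.

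The longest run above 1 on the high side was much farther away. It covered 10 fragments, R528 to R610 (116286772-116559255), 1.64 to 1.91 Mb from the interval, with a primer-corrected ratio of 1.45 ± 0.135 over 50 pairs, of which 34 lay above the fitted value in both libraries. The same partners had 1.05 ± 0.104 with the stretch below and 0.938 ± 0.0855 with the stretch above, and without correction the values were 1.23 ± 0.0711 for the interval, 1.38 ± 0.0475 below and 1.18 ± 0.130 above, so that the interval was not the highest. After iterative correction they were 1.04 ± 0.0277, 1.02 ± 0.0351 and 0.854 ± 0.0371. Its leading fragment was F556 (116385510-116386658), with 3323 and 3050 counts, a ratio of 4.01 ± 0.279 and a primer-corrected ratio of 2.05. The runs on the high side were also picked for their values.

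By the rule that a pair is called when its z is at least 2 in both libraries, 11 of the 1005 members were called. Over all 10584 pairs 153 were called, which is 1.45%, so the interval held no more calls than its size gives. Called pairs fell on R70 and R75 (4 each) and on F68, F74 and F78 (1 each). F71, R73, F76, R77 and R79 had none. Of the 11, 6 had F28, F31 or R33 as partner, and these made up all calls on the low side over 100 kb, or 3.49% of its 172 pairs. Among all pairs from 100 kb to the reach of the low side, 1.29% were called. With primer effects taken out none of these 6 was called, and 2 of the 172 pairs were, F71-R22 and F76-R19.

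The calls on the low side were F28-R75 with 7872 and 7752 counts, F28-R70 with 8483 and 6525, F31-R75 with 7188 and 6405, F31-R70 with 7383 and 6589, F78-R33 with 7882 and 6819, and F68-R33 with 8619 and 7160. All 6 spanned 152 to 184 kb and lay 9.98- to 12.2-fold above the expected count. Besides F115-R70, the calls on the high side lay far from the interval. F334-R70 (951 kb) had 697 and 797 counts and a ratio of 5.77 ± 0.734, and F346-R75 (975 kb) had 567 and 518 and a ratio of 4.19 ± 0.131. F556-R75 (1.73 Mb) had 1740 and 1501 counts and a ratio of 10.2 ± 1.15.

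The farthest call spanned nearly the whole assayed locus. F74-R845 joined F74 with 117334454-117337990 over 2.68 Mb, with 1302 and 1517 counts and a ratio of 7.61 ± 0.674. Its z stayed at 2.86 and 2.82 after primer correction, whereas that of F556-R75 fell to 1.71 and 1.79. After iterative correction the order turned, with 0.723 and 1.06 for F74-R845 and 1.38 and 1.31 for F556-R75.

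**Figure D5:**
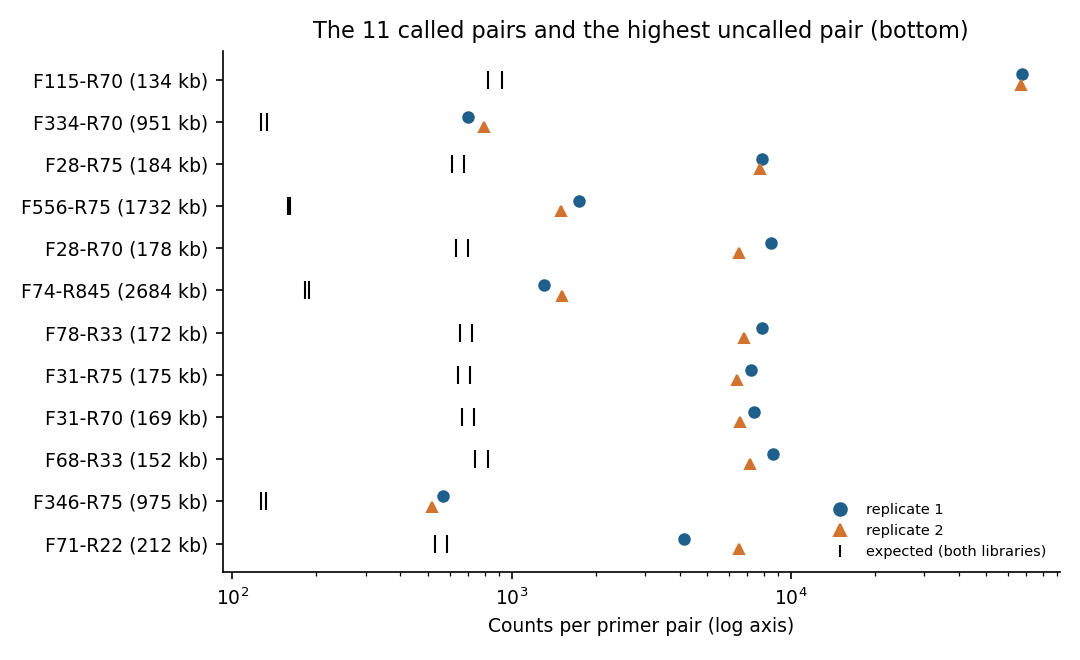
Counts of the 11 called pairs and of the uncalled pair F71-R22 in the 2 libraries (circles and triangles), beside the counts expected at their distance (ticks; log axis). All observed counts lie above the expected ones, from 518 for the lowest library of F346-R75 to 67298 for F115-R70.

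Which pairs were called depended on how primer effects were treated. On the log2 scale, where 0.671% of all pairs were called, 9 members were called and all 9 were among the 11, the exceptions being F334-R70 and F346-R75. With primer effects taken out, where 1.18% of all pairs were called, 8 members were called and 2 of them, F115-R70 and F74-R845, were among the 11. After iterative correction, where 1.23% of 10503 pairs were called, 7 members were called and 1, F115-R70, was shared. F115-R70 was the only member called in all 4 ways.

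A pair near the threshold ranked second once primer effects were taken out. F71-R22, which joins F71 with 114434637-114441221 over 212 kb, had 4153 and 6532 counts and a ratio of 9.66 ± 3.65. Its z was 1.88 and 3.11, just short of a call, and 3.98 and 4.32 after primer correction. F295-R75 (395 and 458 counts), F76-R19 (979 and 615) and F78-R705 (320 and 307) were likewise uncalled before primer correction and called after it, with ratios of 2.92 ± 0.414, 1.77 ± 0.456 and 1.87 ± 0.0285. F76-R450 and F76-R345 were called there with 150 and 31 and with 41 and 15 counts, which lay below the expected count on average. F71-R22, F295-R75, F76-R450 and F76-R345 were also called after iterative correction.

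The other uncalled pairs of highest z fell on R70 and R75. F556-R70 had 1205 and 1220 counts and a ratio of 7.58, and with F556-R75 it gave F556 high values with both fragments. F272-R70 had 576 and 966 counts, F272-R75 had 732 and 540, and F233-R75 had 731 and 1087. Each passed the threshold in 1 library only.

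The contact profiles of the interval's fragments were compared with each other. Over partners at least 100 kb away, the Spearman correlation of z between fragments of 1 primer type was 0.542 to 0.866 for the forward fragments (median 0.733) and 0.424 to 0.842 for the reverse fragments (median 0.731). Fragments of 1 type share their partner primers, and with primer effects taken out the medians were only 0.280 and 0.297, with values from 0.0397 to 0.643 and from -0.294 to 0.738. Fragments outside the interval were not compared in this way. R70 and R75, the strongest fragments, were most alike then, at 0.738 over 83 partners. F71 and F78 followed at 0.643 over 94 partners. R77 went against both R70, at -0.294, and R75, at -0.285.

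The interval was set against stretches of equal length on both sides of it. Over partners at least 100 kb away its ratio was 1.56 ± 0.0345 for 891 pairs, and 1.29 ± 0.0477 without F115-R70. The 39.0 kb below (4 fragments, 349 pairs) had 1.35 ± 0.00294 and the 39.0 kb above (9 fragments, 812 pairs) had 1.21 ± 0.160. With F115-R70 the interval was higher than both in each library. Without it the interval had 1.32 and 1.26 in the 2 libraries, against 1.34 and 1.35 below and 1.10 and 1.33 above, and the order differed between the libraries. Toward the low side beyond 100 kb the ratios were 2.04 for the interval, 1.83 below and 1.5 ± 0.248 above, and after primer correction 1.24, 0.962 and 0.804. Calls among these pairs made up 1.23% for the interval, 1.15% below and 2.83% above.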

How the data were processed

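Per the file headers, the authors deposited 1 all-by-all matrix of counts per library (my5C, with a step named transpurge), forward by reverse primers. Alignment with Novoalign and build mm9 are named in the submitters' processing notes, with no version or setting given there. The counts were used as deposited (16067416 and 15096402 in all) and carry no molecular identifiers. The libraries differed by more than counting error, with a chi-square of 25.1 times its 1004 degrees of freedom. No mm9 genome was used, and RefSeq (another build) served for gene order only.

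For each library, the expected count was a LOWESS curve (span 0.2) of count on log10 midpoint distance over all pairs, zeros included. The z was the residual over the root of the smoothed squared residual, and 2 or more in both libraries made a call. Primer correction alternated the curve with forward and reverse means of log2(count + 1), and iterative correction used 100 rounds without pairs sharing a site. Functions were tested on simulated data. Members, lists and tests were chosen with earlier results of these data known. Named items were all interval fragments, all called pairs, the 5 uncalled pairs of highest z, the 5 pairs over 100 kb of lowest ratio (expected count of at least 50), and the 5 highest and 5 lowest partners. Near partners, runs of partners and pairs called after primer correction were named after their values were seen. Alternatives are listed in the closing section; leaving out the pair of highest z and starting at 100 kb were added after seeing the data. Python 3.11.15, numpy 2.4.6, pandas 2.3.3, scipy 1.17.1, statsmodels 0.14.6 and matplotlib 3.10.9 were used.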

Additional observations from a re-analysis of the deposited data

How the results depend on the processing

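No paired analysis was possible because the series has 1 group. The 11 calls became 2 at a z of 3, and were 14 in either library alone. No share of all pairs is given for these settings, so their counts are not read against the locus. After iterative correction, where 1.23% of all pairs were called, 7 members were called. The quotient of the low over the high side (1.77) was 2.11 at a LOWESS span of 0.4, 3.77 on the log2 scale, 1.13 with primer effects taken out, 0.993 after iterative correction, 5.55 by the median pair, 5.16 without F115-R70, 0.851 from 100 kb on and 4.04 from 100 kb on without F115-R70; single libraries gave 1.65 to 1.89. The ratio beyond 2 Mb (0.637) was 0.661 at a span of 0.1, 0.915 on the log2 scale, 0.750 after iterative correction, 0.992 with primer effects taken out, 0.601 with at least 10 counts in both libraries and 0.455 by the median pair; single libraries gave 0.621 to 0.653. The interval over its neighbours (1.25) was 0.901 after iterative correction, 1.04 with primer effects taken out and 1.03 without F115-R70; single libraries gave 1.15 to 1.35. Mean z turned negative after iterative correction for F334-R70 (-0.36), F28-R75 (-0.45), F28-R70 (-0.57), F31-R70 (-0.21), F346-R75 (-0.62), F272-R70 (-0.44), F233-R75 (-0.12) and F272-R75 (-0.34), and with primer effects taken out for F346-R75 (-0.44). Partner ratios crossed 1 after iterative correction for F28 (0.347), R528 (1.28) and R345 (2.57), and with primer effects taken out for R528 (1.59), R24 (1.40) and R345 (1.57). The cause was not tested. Pairs with few counts, such as those of R79, limit the depth of these statements.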
